A study of Mus musculus with 2 samples.

Results

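The genes described here set and relax the integrated stress response of mouse erythroblasts, the nucleated precursors of red cells. They are 10 genes of the 43346 Ensembl genes in the deposited tables, taken by symbol: the eIF2 alpha kinases Eif2ak1 to Eif2ak4, the phosphatase subunits Ppp1r15a and Ppp1r15b, and the Atf4 branch Atf4, Atf5, Ddit3 and Trib3. All 10 were found, with 34 annotated transcripts between them. Poly(A)-selected RNA was sequenced as paired ends from 2 libraries of 1 group. The cells carried Ter119, an antigen of late red cell precursors, and came from the livers of pooled male and female embryos at day 14.5, with no treatment or allele named. Both libraries share a donor entry and have separate biosample entries, and nothing says that they came from separate animals. The p-values therefore describe only the difference between these 2 libraries and measure no spread between animals. There is no second condition and no treated group.

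A family of 4 kinases, each answering another stress, places a phosphate on the alpha subunit of the initiation factor eIF2. This slows most protein synthesis, while a few messages with upstream reading frames, Atf4 among them, are translated better. In red cell precursors the kinase Eif2ak1, also called HRI, is held inactive by heme and becomes active when heme runs short, which keeps globin synthesis in step with heme supply. Ppp1r15a and Ppp1r15b bring protein phosphatase 1 to eIF2 and remove the phosphate. These events act on protein and on translation, and the data here are levels of RNA.

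Expected counts summed to 51190555 in library 1 and 44256287 in library 2. Levels are given as TPM, each gene's share of all transcripts after correction for length, with the mean ± SD over the 2 libraries (n = 2). Globins took 86.0% and 84.4% of TPM, so that all other genes shared the rest. All 10 erythroblast markers, led by the globin gene Hba-a1, had at least 1 TPM in both libraries, and 0 of 6 early progenitor markers did, with Spi1 highest at 0.77 and 0.95 TPM. Markers of other cells of the fetal liver were low in sum: 11 hepatic genes gave 16.2 and 19.1 TPM, 10 macrophage genes 13.4 and 20.9 TPM, 10 neutrophil genes 10.7 and 13.2 TPM and 7 megakaryocyte genes 11.3 and 14.45 TPM. The highest of each list were Apoa1, C1qc, Mpo and Gp9. At least 1 TPM in both libraries was reached by 3 of 11 hepatic, 4 of 10 macrophage, 3 of 10 neutrophil and 2 of 7 megakaryocyte genes. The lowest of the last 3 lists were Cd163, Ly6g and Ppbp, named after their values were seen. Ly6g had 0 counts in both libraries, and Cd163 and Ppbp had 0 in library 2. In bulk RNA, fewer cells of a type and less RNA per cell cannot be told apart.

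Upstream reading frames can be read from the sequence of the transcript leaders, and whether they are translated was not measured. For each gene the annotated coding transcript with the most counts was read from GENCODE M21, and each ATG before the main start was followed to its stop. The starts of Atf4, Atf5, Ddit3 and Ppp1r15a are shown because their messages are the textbook cases of translation under eIF2 phosphorylation; capitals mark the start codon and positions count from the first base of the transcript.
Atf4 upstream start at base 120: tctctcATGgggc
Atf4 upstream start at base 399: gccaccATGgcgt
Atf4 upstream start at base 498: taagccATGgcgc
Atf4 main start at base 595: cacaacATGaccg
Atf5 upstream start at base 122: cgcgcaATGgctc
Atf5 upstream start at base 253: gccgccATGgagt
Atf5 main start at base 374: acagccATGtcac
Ddit3 upstream start at base 56: tatatcATGttga
Ddit3 upstream start at base 65: ttgaagATGagcg
Ddit3 main start at base 187: gcagtcATGgcag
Ppp1r15a upstream start at base 35: tggacgATGttgg
Ppp1r15a upstream start at base 79: gattacATGcgat
Ppp1r15a upstream start at base 180: ggcgacATGaacc
Ppp1r15a main start at base 284: agacacATGgccc

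Atf4-201 has a leader of 594 bases with 3 upstream frames. The first, of 36 codons, ends 364 bases before the main start, and the second has only 3 codons. The last, of 59 codons, begins 97 bases before the main start and runs 83 bases into the main reading frame, in another frame. Atf5-201 has 2 upstream frames in a leader of 373 bases, laid out like the last 2 of Atf4. A frame of 3 codons is followed by one of 58 codons that runs 56 bases past the main start. Ddit3-201 has 2 start codons, at bases 56 and 65, that share 1 stop 26 bases before the main start, with 34 and 31 codons. Ppp1r15a-201 has 3 frames of 45, 34 and 26 codons, each ending before the main start, and Ppp1r15b-201 has 3 in a leader of 604 bases. In all 3 upstream frames of Atf4 and both of Atf5 the codon is followed by G, a base that favours initiation, and in none of those of Ppp1r15a and Ddit3. The other favourable feature, a purine 3 bases before the codon, is present in 2 of 3 upstream starts of Atf4, 2 of 2 of Atf5, 2 of 2 of Ddit3 and 2 of 3 of Ppp1r15a, so it does not separate these genes.

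The kinases differ among themselves in this respect. Eif2ak1-201 and Eif2ak4-201 have 0 upstream start codons in leaders of 103 and 91 bases, Eif2ak2-201 has 1 and Eif2ak3-201 has 3. Trib3-201, whose gene is a target of Atf4 and Ddit3, has 0. In all, 7 of the 10 genes have an upstream start codon, against 43.6% of 4188 genes with at least 1 TPM. A frame that runs past the main start is present in 4, against 14.3%. The sets are not alike: Eif2ak2, Eif2ak3 and Eif2ak4 lay under 1 TPM, and Eif2ak2 and Eif2ak3 have both features. Leader length was not matched, with a median of 150 bases in the 4188 genes. Atf4, Atf5, Ddit3 and Ppp1r15a were known beforehand to have upstream frames, so these shares are no test. The M21 sequences of Atf4-201 and Atf5-201 are 1 base longer than in the deposited tables and that of Eif2ak1-201 is 5 bases shorter.

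**Figure D1:**
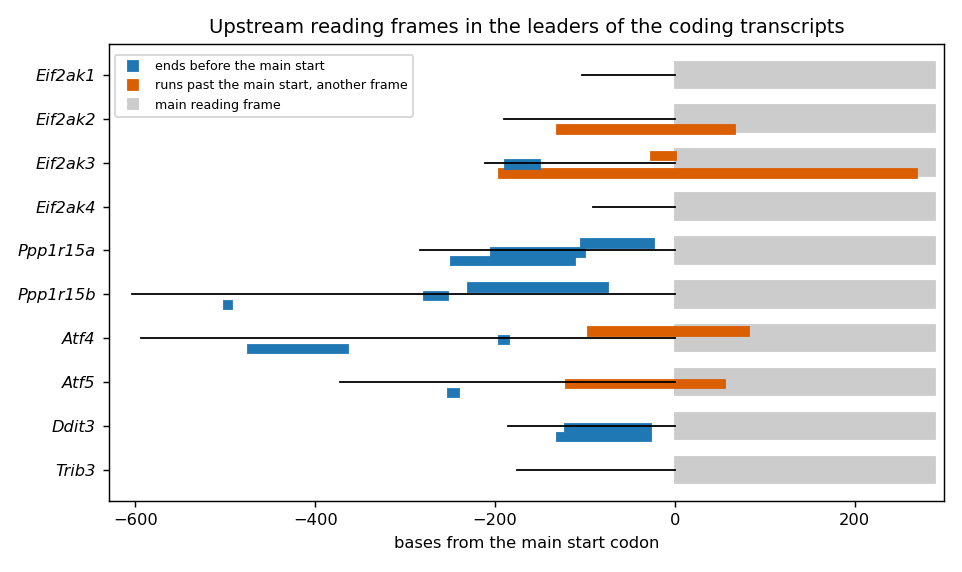
Leaders of the coding transcripts of the 10 genes, drawn in bases from the main start codon (x axis, at 0), with 1 gene a row. Blue bars are upstream reading frames that end before the main start, and orange bars run past it in another frame, as the last frames of Atf4 and Atf5 do by 83 and 56 bases; grey is the first part of the main reading frame, cut off at the same length in every row.

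Among the kinases, nearly all of the RNA was that of the heme-regulated kinase. Eif2ak1 (chromosome 5, 143817788 to 143904251 in mm10) had 4620 counts in library 1 and 3770 in library 2, or 17.15 and 16.89 TPM, a mean of 17.02 ± 0.184 TPM. Its credibility interval, which the authors' quantifier gave for each library without stating its level, ran from 16.4 to 17.7 TPM in library 1 and from 16.05 to 17.5 TPM in library 2. This level was above that of 95.7% of protein-coding genes, and above 95.4% of those of like GC content. The other kinases were each under 1 TPM in both libraries.

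Eif2ak2, known as PKR, senses double-stranded RNA (chromosome 17, 78852564 to 78882573). It had 56 and 20 counts, or 0.49 and 0.06 TPM. The gap in TPM is wider than the gap in counts because 22.5 of the 56 counts in library 1 were assigned to a retained-intron transcript of 704 bases, Eif2ak2-204, which took 83.3% of the gene's TPM there and 0% in library 2. Eif2ak3, known as PERK, senses unfolded protein in the endoplasmic reticulum (chromosome 6, 70844515 to 70905245). It had 26 and 33 counts, or 0.07 and 0.33 TPM, and a transcript of 347 bases with 3.93 counts took 73.7% of its TPM in library 2. Eif2ak4, known as GCN2, senses uncharged transfer RNA (chromosome 2, 118388618 to 118475234). It had 106 and 67 counts, or 0.25 and 0.18 TPM.

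Eif2ak1 therefore held 95.5% of the summed TPM of the 4 kinases in library 1 and 96.7% in library 2, a mean of 96.1% ± 0.881. The mean share was 96.5% when expected counts were used without length, and 96.9% when counts were divided by the length of each gene's longest coding transcript. Eif2ak1 exceeded Eif2ak4 by 68.6 and 93.8 times in TPM. The TPM ranges of Eif2ak2, Eif2ak3 and Eif2ak4 over the 2 libraries overlapped, so TPM gives them no order among themselves. With every read placed on the coding transcript, Eif2ak4 had 0.214 and 0.173 TPM. That was above Eif2ak2 (0.137 and 0.0629) and Eif2ak3 (0.0608 and 0.0990) in both libraries, so the order depends on the scale. The counts of these kinases lay above the 3 counts that a count of 0 would allow. The precision of these low values is limited by the number of counts.

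The RNA of Eif2ak1 was divided between a coding and a non-coding form. The coding Eif2ak1-201, of 4330 bases, took 46.4% and 52.8% of its TPM, and the retained-intron transcript Eif2ak1-202, of 1654 bases, took 53.6% and 46.9%. The expected counts, which take no account of length, put 70.55% and 75.65% on the coding form. With every read placed on the coding transcript, the level of Eif2ak1 was 11.3 and 11.8 TPM, a mean of 11.5 ± 0.375. The gene overlaps Aimp2 on the opposite strand, which had 465 and 382 counts. The counts of both genes were whole in each library, and the posterior SD of the Eif2ak1 count was 0, so no read was divided between them; the use of strand in counting is not given in the sources used here.

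Of 14 regulators of the kinases 9 had at least 1 TPM in both libraries, or 64.3%, against 20% of all protein-coding genes. The chaperones Hspa8 (77.1 ± 11.9 TPM) and Hsp90ab1 (53.5 ± 22.9 TPM) and the co-chaperone Cdc37 (24.7 ± 1.46 TPM) led; Hsp90 and Cdc37 are needed for the folding of Eif2ak1. Impact, an inhibitor of Eif2ak4, was lowest, with 1 and 0 counts. Of 11 interferon-induced genes, which respond in the setting where Eif2ak2 is induced, 2 passed 1 TPM, Irf7 (2.0 ± 0.552 TPM) and Rsad2 (1.545 ± 0.262 TPM), followed by Isg15 (0.835 ± 0.0212 TPM), and Ifit1 had 0 counts in both libraries.

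**Figure D2:**
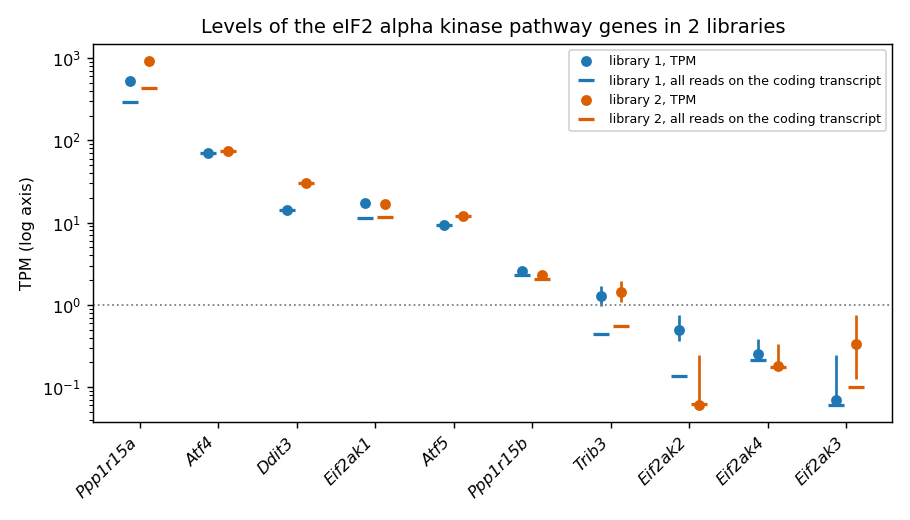
Level of each of the 10 genes in TPM (log axis), with library 1 in blue and library 2 in orange. Points are the deposited values with the authors' credibility intervals as vertical lines, and short bars are the values with all reads on the coding transcript; Ppp1r15a is highest, at 522 and 913 TPM, and the kinases other than Eif2ak1 lie under the dotted line at 1 TPM.

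The inducible phosphatase subunit was by far the most abundant RNA of the 10. Ppp1r15a, also called GADD34 (chromosome 7, 45522916 to 45526268), had 62555 and 72045 counts, or 522 and 913 TPM, a mean of 717 ± 276.5. By this mean, which includes the short transcript described below, it ranked 30 among protein-coding genes. Its relative Ppp1r15b, the constitutive subunit also called CReP (chromosome 1, 133131143 to 133139783), had 1225 and 844 counts, or 2.56 and 2.3 TPM, a mean of 2.43 ± 0.184. The ratio of Ppp1r15a to Ppp1r15b was 204 in library 1 and 397 in library 2. The levels of the 2 genes did not overlap, and library 2 had the higher Ppp1r15a and the lower Ppp1r15b.

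The size of the Ppp1r15a value rests in part on a short transcript. A transcript of 389 bases, which has no entry of the same identifier in M21, took 49.9% and 59.8% of the TPM of the gene but 10.05% and 14.6% of its counts. The coding Ppp1r15a-201, of 2333 bases, held 88.4% and 84.2% of the counts. With every read on that transcript the level was 292 and 430.5 TPM, a mean of 361 ± 98.15, and the ratio to Ppp1r15b was 127 and 212. On both scales Ppp1r15a remained the highest of the 10 genes in each library. Ppp1r15b-201 held 70.2% and 66.5% of the TPM of its gene, and the rest fell to the processed transcript Ppp1r15b-202.

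All 3 catalytic subunits of protein phosphatase 1, which the Ppp1r15 proteins recruit, had at least 1 TPM. Ppp1ca had 48.5 ± 10.2 TPM, Ppp1cc 14.5 ± 0.262 TPM and Ppp1cb 2.97 ± 0.552 TPM. Among 12 genes of eIF2, its exchange factor eIF2B and related factors, 7 passed 1 TPM, or 58.3% against the 20% of all protein-coding genes. The eIF2B subunits Eif2b4 (25.6 ± 0.099 TPM) and Eif2b2 (24.35 ± 4.61 TPM) and the reinitiation factor Denr (5.64 ± 1.2 TPM) led, and Mcts1, the partner of Denr, was lowest at 0.055 ± 0.0778 TPM.

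**Figure D3:**
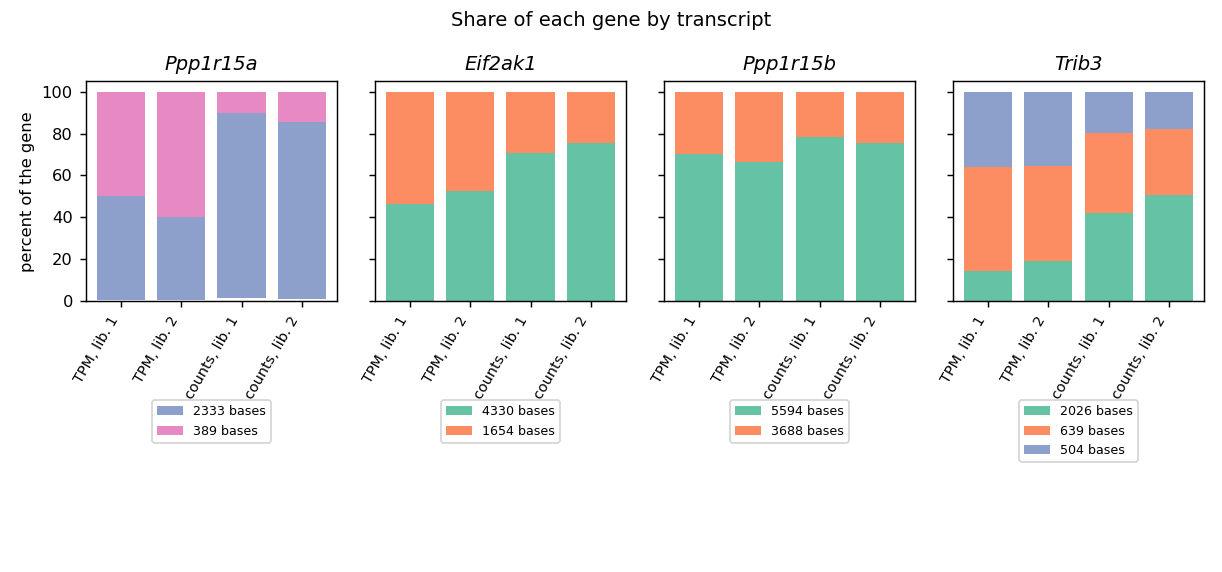
Share of each gene (percent, y axis) that fell to its transcripts, by TPM and by expected counts in each library; colours are transcripts, labelled by length in bases, and transcripts under 2% in all bars are left out or blank. The 389-base transcript of Ppp1r15a takes 49.9% and 59.8% by TPM but 10.05% and 14.6% by counts.

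Atf4, the transcription factor whose translation rises when eIF2 is phosphorylated (chromosome 15, 80255184 to 80257541), was second. It had 10858 and 8936 counts, or 70.1 and 73.9 TPM, a mean of 72.0 ± 2.65, above 98.7% of protein-coding genes. Only 1 transcript is in the deposited tables for Atf4, so its level does not depend on a division between forms. Atf4 exceeded Eif2ak1 by 4.09 and 4.37 times in TPM, and by 6.22 and 6.26 times with all reads on the coding transcripts. Atf5, a related factor under the same translational control (chromosome 7, 44812256 to 44816658), had 1533 and 1523 counts, or 9.36 and 11.9 TPM, a mean of 10.635 ± 1.803. Atf4 exceeded Atf5 by 7.49 and 6.2 times, and Atf5-201 took all the TPM of its gene in both libraries.

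Ddit3 and Trib3, 2 of the genes downstream of Atf4, stood far apart. Ddit3, which encodes the factor CHOP (chromosome 10, 127290774 to 127296288), had 1049 and 1718 counts, or 14.3 and 30.15 TPM, a mean of 22.2 ± 11.2. Trib3, a pseudokinase that restrains Atf4 and Ddit3 (chromosome 2, 152337422 to 152344032), had 82 and 80 counts, or 1.29 and 1.45 TPM, a mean of 1.37 ± 0.113. The level of Trib3 also depended on which of its forms was counted: its coding transcript Trib3-201 took 14.6% and 19.4% of TPM, against 49.5% and 45.1% for the processed transcript Trib3-202. With all reads on Trib3-201 the level was 0.445 and 0.556 TPM, under 1 TPM in both libraries. Ddit3 overlaps Mars, the methionyl-tRNA synthetase gene, on the opposite strand, which had 723 and 775 counts. These counts too were whole, and the posterior SD of the Ddit3 count was 0. M21 also lists a second Ddit3 entry on the same strand, which was not used here.

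In order of mean TPM the genes ran Ppp1r15a, Atf4, Ddit3, Eif2ak1, Atf5, Ppp1r15b, Trib3, Eif2ak2, Eif2ak4 and Eif2ak3. The ranges of neighbours over the libraries overlapped for Ddit3 with Eif2ak1, for Eif2ak2 with Eif2ak4 and for Eif2ak4 with Eif2ak3, and not for the other neighbours. Of the 10 genes 7 had at least 1 TPM in both libraries, against 20% of protein-coding genes. All 10 had whole expected counts and a posterior SD of 0 in both libraries, so that no read of theirs had been divided with another gene.

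The 250 bases before each RefSeq start were read from RefSeq on GRCm38.p6, the mm10 assembly. The table held 9 of the 10 genes, in 11 windows. Shown are the windows of Ppp1r15a, the most abundant member (chr7:45526269-45526518, minus strand), of Eif2ak1, the leading kinase (chr5:143817542-143817791, plus strand), and of Ddit3, the member with the largest difference between the libraries in log2(CPM + 1) (chr10:127290543-127290792, plus strand). Capitals mark matches to the motifs named after them.
Ppp1r15a: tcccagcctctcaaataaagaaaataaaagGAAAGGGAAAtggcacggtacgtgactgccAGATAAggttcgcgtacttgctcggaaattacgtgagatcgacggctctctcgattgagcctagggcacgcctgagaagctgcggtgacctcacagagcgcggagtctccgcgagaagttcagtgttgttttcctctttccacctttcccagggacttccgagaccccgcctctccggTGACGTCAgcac
Eif2ak1: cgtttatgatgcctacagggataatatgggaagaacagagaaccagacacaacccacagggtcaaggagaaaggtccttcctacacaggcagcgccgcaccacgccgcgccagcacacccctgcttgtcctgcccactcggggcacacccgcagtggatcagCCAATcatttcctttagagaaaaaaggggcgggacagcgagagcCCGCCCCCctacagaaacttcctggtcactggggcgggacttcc
Ddit3: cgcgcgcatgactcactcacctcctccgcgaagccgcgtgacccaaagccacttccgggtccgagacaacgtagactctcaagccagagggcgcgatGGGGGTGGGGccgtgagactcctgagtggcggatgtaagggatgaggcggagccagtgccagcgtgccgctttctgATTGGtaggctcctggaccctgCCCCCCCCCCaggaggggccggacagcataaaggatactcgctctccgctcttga

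Matches on either strand were sought for 8 short motifs. The Ppp1r15a window held TGACGTCA, the cyclic AMP response element that factors of the ATF and CREB families bind, from 12 to 5 bases before the start, a motif found in 1.55% of 32851 promoter windows. It also held the GATA site AGATAA (9.99% of windows) and the core of the interferon response element (2.98%). The Eif2ak1 window held CCNCNCCC, a site of the Kruppel-like kind (45.9%), and CCAAT (33.8%). The Ddit3 window held 5 overlapping or separate matches to CCNCNCCC and 1 to CCAAT. The Atf4 window held the GATA site TGATAA (7.94%). None of the 11 windows held TGATGNAA, the core of the C/EBP-ATF response element (3.45%), or the ER stress response element (0.113%), which begins with CCAAT. A match is a description of letters, and no match says only that these letters are not in this window.

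The genes around Atf4 in the pathway were measured from a list of 32 textbook Atf4 targets. Of these 16 of 32 passed 1 TPM in both libraries, against 20% of protein-coding genes. The amino acid transporter subunit Slc7a5 (27.3 ± 20.2 TPM), Herpud1, a factor of protein degradation at the endoplasmic reticulum (25.6 ± 14.6 TPM), and Shmt2, a mitochondrial enzyme of serine use (17.4 ± 3.50 TPM), led the list. At the foot of the list Aldh1l2 and Cth had 0 counts in both libraries. Of 12 genes of the other arms of the unfolded protein response 6 passed 1 TPM, led by the chaperones Calr (32.4 ± 1.28 TPM), Sdf2l1 (9.605 ± 0.926 TPM) and Hspa5 (9.5 ± 1.97 TPM), with Pdia4 lowest at 0.025 ± 0.00707 TPM.

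**Figure D4:**
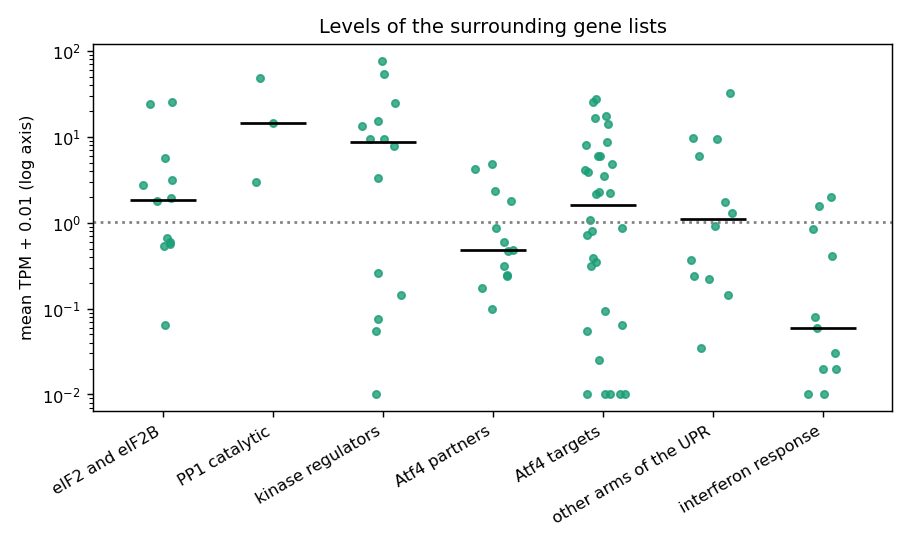
Mean TPM over the 2 libraries (log axis, with 0.01 added) of each gene in 7 lists around the pathway; points are genes, black lines are list medians and the dotted line is 1 TPM. The median is 8.67 TPM for the kinase regulators, 1.61 for the Atf4 targets and 0.05 for the interferon response.

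With 1 group, the comparison that could be tested was between the libraries. Each gene's counts were compared by an exact binomial test, two-sided and conditional on their sum, with library sizes scaled by edgeR and Benjamini-Hochberg adjustment over 10955 genes. The test compares these 2 libraries beyond counting error, not conditions. Of the 10 genes 7 passed an adjusted p of 0.05, and 44.9% of all genes tested did. Ddit3, Ppp1r15a and Atf5 were higher in library 2, where 22.4% of genes were called higher. Eif2ak1, Eif2ak2, Ppp1r15b and Atf4 were lower, where 22.5% were called lower.

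On the scale of log2(CPM + 1) Ddit3 showed the largest difference of the 10; by plain ratio Eif2ak2 differed more, with 1.10 and 0.449 CPM from 56 and 20 counts. Ddit3 had 20.6 CPM, its counts scaled to the library size, in library 1 and 38.6 CPM in library 2, a difference of 0.87 in log2(CPM + 1) (exact conditional binomial test, adjusted p = 1.1e-57). This was larger than the absolute difference of 96.9% of the 5256 genes that reached 100 counts in each library, of which 2.19% lay more than 2-fold apart. Ppp1r15a had 1230 and 1617 CPM, a difference of 0.39, larger than that of 77% of those genes. Ppp1r15b had 24.1 and 18.9 CPM, a difference of -0.33 (exact test, adjusted p = 5.57e-07).

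The remaining differences were small or rested on few counts. Eif2ak1 had 90.8 and 84.6 CPM, a difference of -0.10 (exact test, adjusted p = 0.00405); with all reads on its coding transcript it was higher in library 2, at 11.3 and 11.8 TPM, so its direction depends on the scale. Atf4 had 214 and 201 CPM, a difference of -0.09 (exact test, adjusted p = 6.41e-05), although its TPM was higher in library 2, so its direction also depends on the scale, and the difference was -0.19 after centring on GC content. Both were smaller than the median absolute difference of 0.21 among the 5256 genes. Atf5 differed by 0.18 (exact test, adjusted p = 0.00193) and Eif2ak2 by -0.54 (exact test, adjusted p = 0.00124). Eif2ak3, Eif2ak4 and Trib3 had differences of 0.20, -0.30 and 0.10 and did not pass (adjusted p = 0.295, 0.0805 and 0.645, exact tests).

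A test that allows for spread between libraries as well as counting error called none of the 10. In edgeR's negative binomial exact test with the common dispersion of these libraries, a coefficient of variation of 0.24, 0 of 10 passed, and 1.71% of all genes did. At an unadjusted p of 0.05 that test took 1 of the 10, Eif2ak2 (p = 0.0461, exact test), against 9.9% of all genes, and gave Ddit3 p = 0.0713. The dispersion comes from the same 2 libraries, so it counts their difference as spread.

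The Atf4 target list leaned to library 2 with Ddit3. Of 26 members tested 14 were higher there and 3 were lower in the binomial test, against 22.4% and 22.5% of all genes, with a median difference of 0.27 against -0.01 for all genes tested. Slc7a5 had 13.0 and 41.6 TPM but 4144 and 5817 counts, and a difference of 0.67 in log2(CPM + 1). Herpud1 had 15.3 and 35.9 TPM but 2475 and 3355 counts, and a difference of 0.62. For both, the gap in TPM is wider than the gap in counts, and the cause was not tested. Shmt2 had 14.95 and 19.9 TPM and a difference of 0.24. Of genes named after their values were seen, Chac1, which degrades glutathione, had 3.19 and 8.67 TPM and a difference of 1.19, and the alanyl-tRNA synthetase Aars 5.41 and 10.8 TPM and a difference of 0.86. The 3 lower members, also named after their values were seen, were Mthfd2, Asns and Slc7a1, with differences of -0.27, -0.23 and -0.36; Asns, asparagine synthetase, is itself a classic Atf4 target.

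The other arms of the unfolded protein response leaned the other way. Of 12 members tested 1 was higher in library 2, Edem1 (named after its values were seen), and 6, Calr and Hspa5 among them, were lower, against 22.4% and 22.5% of all genes, with a median difference of -0.20. With no count minimum 0 were higher, against 15.4% of all genes. Calr had a difference of -0.08 but 31.5 and 33.3 TPM, so its direction depends on the scale. The chaperone Hspa5 had 10.9 and 8.11 TPM and a difference of -0.335, and Canx, calnexin, named after its values were seen, 8.36 and 3.68 TPM and a difference of -0.83. Of the genes of eIF2, eIF2B and related factors, 11 were tested, with 2 higher and 5 lower, against the same 22.4% and 22.5%. Of the 2 higher, Eif2b2 had a difference of 0.27 but 27.6 and 21.1 TPM, lower in library 2. Eif2s1, which encodes the subunit that the kinases phosphorylate, had 1.98 and 1.54 TPM and a difference of -0.485; Eif2s1 was also named after its values were seen. The number of genes of eIF2, eIF2B and related factors called lower was 3 with total counts or GC centring, against 21.4% and 20.8% of all genes. After centring on GC content, the Atf4 targets counted 16 higher and 2 lower, against 21.8% and 20.8% of all genes, and the unfolded protein response genes 1 and 5. In the negative binomial test 0 members of either list passed, and 3 of 26 targets and 0 of 12 unfolded protein response genes had an unadjusted p under 0.05, against 9.9% of all genes.

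Other measures moved between the libraries along with these genes. Of 10 erythroblast markers 5 were higher in library 2 and 5 lower in the exact binomial test, against 22.4% and 22.5% of all genes. Among those named after their values were seen, the globin gene Hbb-bt moved most, with 61931 and 30524 TPM and a difference of -1.18. Its counts were not whole, so reads had been divided between it and other genes. The globin gene Hbb-bs, whose counts were not whole either, had a difference of -0.02. Alas2 had 204 and 270 TPM and a difference of 0.61, Epor 70.9 and 114 TPM and 0.52, and Tfrc 6.9 and 6.13 TPM and -0.28. The summed macrophage markers were 13.4 and 20.9 TPM, with 4 of 9 tested higher in library 2 and 1 lower, against 22.4% and 22.5% of all genes. The 4 higher were C1qc, C1qb, Marco and Csf1r, the last with 0.16 and 0.51 TPM and a difference of 1.06, and the lower was Mertk; Adgre1 had 0.04 and 0.03 TPM. All but C1qc were named after their values were seen. The mean fragment length was 143 and 137 bases. The part of these in the differences of Ddit3, Ppp1r15a and the Atf4 targets was not tested.

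**Figure D5:**
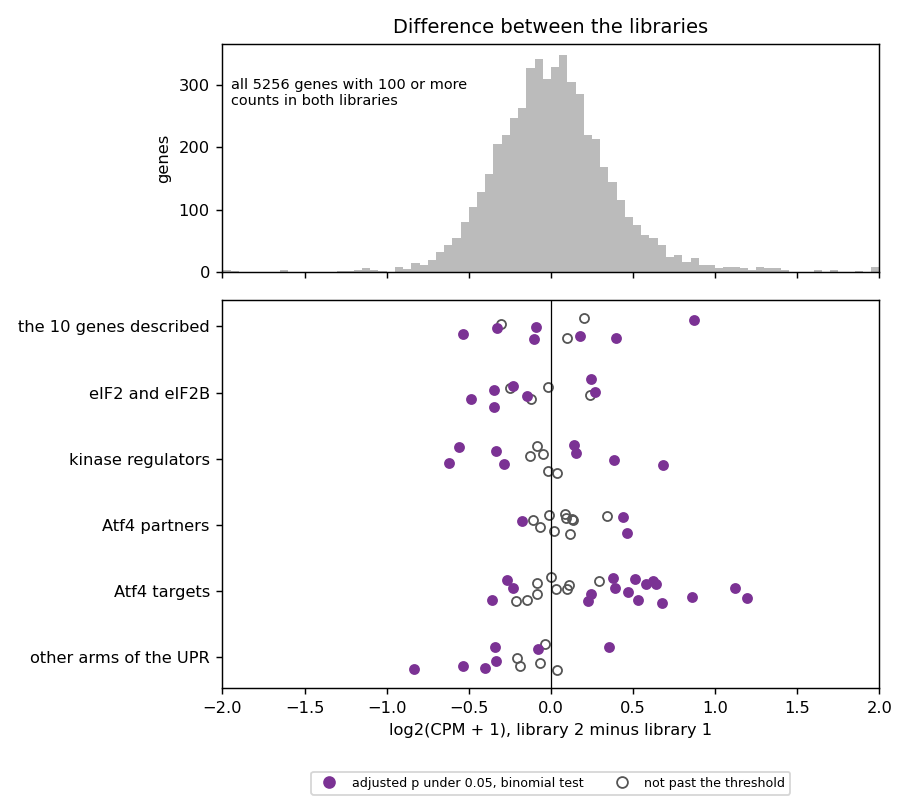
Difference between the libraries in log2(CPM + 1), library 2 minus library 1 (x axis). The upper panel counts the same 5256 genes that reached 100 counts in each library, with values beyond the axis placed in the end bins; in the lower panel each point is a gene, filled where the adjusted p of the binomial test is under 0.05. Ddit3 lies at 0.87, and of the Atf4 targets 14 filled points lie right of 0 and 3 left.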

How the data were processed

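Poly(A) RNA was sequenced from 2 libraries of Ter119-positive fetal liver erythroblasts. Reads were aligned to mm10 and quantified with GENCODE M4 by the authors, per the listing beside the files; for the aligner, quantifier, their versions and the use of strand, the sources used here give nothing. The deposited expected counts are estimates per gene and transcript. The deposited TPM and FPKM values are corrected for length, and the deposited percent gives each transcript's share of its gene. Symbols, positions, GC content and leaders came from GENCODE M21, and symbols matched 42462 of 43346 genes. The 26345 other rows held 0 counts.

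Expected counts were rounded and scaled by TMM factors of 0.993 and 1.01 from edgeR 4.0.16 under R 4.3.3. Genes whose summed count over the libraries reached 10 entered an exact binomial test, two-sided and conditional on that sum, adjusted by Benjamini-Hochberg. Differences are in log2(CPM + 1), which understates those of low genes. The alternatives used DESeq2 1.42.0 size factors, total counts, other minima and units, GC bins and edgeR's exact test. Detection meant at least 1 TPM in both libraries, and like GC content meant within 2.5 percentage points. The binomial procedure was tested on simulated data. Genes named are the 10 members, the 3 highest and the lowest of each pathway list, the highest of each marker list, and others said to be chosen after their values were seen. The members and lists were chosen with earlier results of these data known. Intervals and floors cover counting error only. Other steps used Python 3.11.15, numpy 2.4.6, pandas 2.3.3, scipy 1.17.1 and matplotlib 3.10.9.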

Additional observations from a re-analysis of the deposited data

How the results depend on the processing

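The Eif2ak1 share of the summed kinase TPM was 94.9% with posterior mean TPM, further from the main value of 96.1% than the spread of the libraries. On that scale Eif2ak2, Eif2ak3 and Eif2ak4 had means of 0.35, 0.28 and 0.275 TPM, against 0.275, 0.2 and 0.215 in the main setting. Eif2ak1 had 16.91 against 17.02 TPM. Why the low values were higher on that scale was not tested. The main share was 95.5% and 96.7% in the single libraries. The number of the 10 genes that differed between the libraries was 7 with DESeq2 size factors or total counts, against 44.9% of all genes tested. It was 7 with a minimum of 1 count (29.6% of all genes) or 50 counts (51.9%), posterior mean counts (44.6%) or GC centring (42.6%). It was 0 in edgeR's negative binomial exact test (1.71%), which adds the spread between libraries to counting error. The number with at least 1 TPM was 6 to 8 under other minima, units and denominators, 6 with all reads on the coding transcript, an alternative chosen after seeing the data, and 7 in either library alone. The Atf4 targets detected numbered 13 to 22 under those settings and 16 and 19 in the single libraries. Of the genes of eIF2, eIF2B and related factors called lower in library 2, 5 became 3 with total counts or GC centring. The share of all genes called lower was 22.5% in the main setting, 21.4% with total counts and 20.8% with GC centring. Per-list counts under other settings were also added after seeing the data. No paired analysis was possible because there is 1 group. Depth limits the kinases other than Eif2ak1, with 20 to 106 counts a library.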

Other observations

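The partners and relatives of Atf4 in the bZIP family were low as a list, with 4 of 13 at 1 TPM or more in both libraries and a median of 0.465 TPM. Cebpb, a partner of Atf4 and Ddit3, had 4.33 and 5.3 TPM, Nfe2l1, a regulator of proteasome genes, 4.53 and 3.83 TPM, and Cebpg, a partner of Atf4, 2.27 and 2.45 TPM. The lowest was Jdp2 at 0.07 and 0.11 TPM. In the exact binomial test Cebpd and Cebpe were higher in library 2 and Nfe2l1 was lower, of 13 tested, against 22.4% and 22.5% of all genes; Cebpd and Cebpe were named after their values were seen.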
